A study of Mus musculus with 13 samples.

Results

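The miRNAs described here are mmu-miR-15a-5p, mmu-miR-15b-5p, mmu-miR-16-5p, mmu-miR-322-5p and mmu-miR-503-5p, which were chosen by name as 5 of the 1079 mouse miRNAs measured on the arrays. Their levels were compared between flank tumors of mice on a curcumin diet and mice on normal chow. In curcumin tumors miR-322-5p and miR-503-5p were about 3.14-fold and 2.86-fold higher than in control tumors, whereas no difference of miR-15a-5p, miR-15b-5p or miR-16-5p passed the test. All 5 miRNAs were detected on all arrays.

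The tumors grew from B78H1 cells, an amelanotic mouse melanoma line that was cloned from B16 melanoma and lacks Tap-2 and MHC-I, after subcutaneous injection into both flanks of male C57BL/6 mice. The curcumin group (7 tumors) received chow with 4% curcumin and the control group (6 tumors) received standard chow of the same batch, in both cases from 14 days before the injection until the tumors were taken at 28 days. The labels give no age and no genetic change of the mice, and all hosts kept their own immune, vascular and connective tissue cells, so that the RNA of a tumor is that of a mixture of cells. In such bulk RNA, fewer cells of a type and less RNA per cell cannot be told apart.

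RNA of each tumor was hybridized to 1 array in 1 color. The summed signal of all mouse miRNAs lay between 114095 and 281508 per array. Slide 1 held curcumin tumors 1 to 3 and control tumors 1 and 2, and slide 2 held the others. Every slide carried its control arrays in line 1 and its curcumin arrays in line 2, so that line and diet cannot be told apart. Curcumin tumor 5 stood apart with the lowest summed signal and 272 detected miRNAs, against 352 to 370 in the other curcumin tumors and 313 to 412 in controls. The log2 fold changes of miR-322-5p and miR-503-5p are therefore also given without it. Of the melanocytic miRNAs, miR-211-5p was detected in 6 of 6 control tumors and in 4 of 7 curcumin tumors. After normalization, curcumin tumor 5 had a log2 level of 9.27 for miR-211-5p, within the control range of 8.26 to 9.72. The other curcumin tumors lay at 1.54 to 7.42, and the cause was not tested.

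A miRNA guides the silencing complex to messenger RNAs mainly through its seed, a short stretch near the 5′ end that pairs with the target. The miR-15/16 family is known for silencing regulators of the cell cycle, among them cyclin D1, cyclin E1 and Wee1, and the anti-apoptotic protein Bcl-2. The human genes of miR-15a and miR-16-1 are lost in many chronic lymphocytic leukemias. Mouse miR-322 is the counterpart of human miR-424, and together with miR-503 it is known from differentiating muscle cells, endothelium and monocytes, where it lowers the cell cycle phosphatase Cdc25A.

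The mature sequences show which bases the 5 miRNAs share. They were taken from RefSeq (assembly GRCm38.p6) and are written 5′ to 3′ with bases 2 to 8, the seed, in capitals.
mmu-miR-15a-5p: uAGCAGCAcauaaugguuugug
mmu-miR-15b-5p: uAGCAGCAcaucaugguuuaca
mmu-miR-16-5p: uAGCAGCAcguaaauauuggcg
mmu-miR-322-5p: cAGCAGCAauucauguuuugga
mmu-miR-503-5p: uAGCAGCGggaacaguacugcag

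The seed was the same in miR-15a-5p, miR-15b-5p, miR-16-5p and miR-322-5p. The seed of miR-503-5p shares bases 2 to 7 with them and has another base at its end. Outside the seed the sequences differ more. Compared position by position from the 5′ end over 22 bases, miR-15a-5p and miR-15b-5p were equal at 18, miR-15a-5p and miR-16-5p at 16, miR-15b-5p and miR-322-5p at 16, and miR-322-5p and miR-503-5p at only 11. The array has its own probes for each of them, and whether a probe also binds a near-identical family member was not tested. Among the 842 miRNAs of the array with a RefSeq sequence, 7 share bases 2 to 7 with these miRNAs. The others are miR-195-5p and miR-497-5p, printed here because they carry the same 7-base seed.
mmu-miR-195-5p: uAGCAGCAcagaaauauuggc
mmu-miR-497-5p: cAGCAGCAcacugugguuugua

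The genes lie in pairs. Mature miR-15a-5p is at chr14:61632075-61632096 and the miR-16-5p copy of Mir16-1 at chr14:61631936-61631957, both on the minus strand within the long noncoding gene Dleu2, with 54 bases between the hairpins. Mature miR-15b-5p is at chr3:69009775-69009796 and the miR-16-5p copy of Mir16-2 at chr3:69009918-69009939, both on the plus strand within the protein-coding gene Smc4, with 66 bases between the hairpins. The mature miR-16-5p of both copies is identical, so the array cannot tell them apart. On the minus strand of the X chromosome, miR-322-5p is at chrX:53054306-53054327 and miR-503-5p at chrX:53054027-53054049, within the long noncoding gene C430049B03Rik and with 200 bases between the hairpins.

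The diet difference was found in the X-linked pair. Signals were quantile normalized, which gives all arrays the same distribution of values, and are given on the log2 scale. Levels of different miRNAs are not compared here, since they depend on the probes. In control tumors miR-322-5p ranged from 7.64 to 8.38 with a median of 7.96. In curcumin tumors it ranged from 8.38 to 10.12 with a median of 9.84. The curcumin tumors other than number 5 lay at 9.66 or above and thus over all controls, while curcumin tumor 5 had the same value as control tumor 5, 8.38.

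The mean of miR-322-5p was 9.67 ± 0.59 (SD, n = 7) after the curcumin diet, against 8.02 ± 0.29 (SD, n = 6) after normal chow. The log2 fold change was 1.65 (SE 0.26, 95% interval 1.07 to 2.22), which is 3.14-fold (2.11 to 4.67), with an adjusted p of 0.00348 in limma, a linear model fitted to all miRNAs with a shared estimate of the spread. The exact two-sided permutation test of this miRNA alone gave an unadjusted p of 0.00175.

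For miR-503-5p the control tumors lay close together, between 5.48 and 5.74 with a median of 5.59. The curcumin tumors ranged from 5.83 to 7.69 with a median of 7.28. The groups did not overlap, although curcumin tumor 5, at 5.83, was again next to the controls. Such separation was found in 11.9% of the 243 miRNAs detected on all arrays. The means were 7.10 ± 0.63 (SD, n = 7) and 5.59 ± 0.10 (SD, n = 6). The log2 fold change of miR-503-5p was 1.52 (SE 0.26, 95% interval 0.95 to 2.08), or 2.86-fold (1.94 to 4.22), with an adjusted p of 0.00374 in limma and an unadjusted p of 0.00117 in the exact permutation test.

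**Figure D1:**
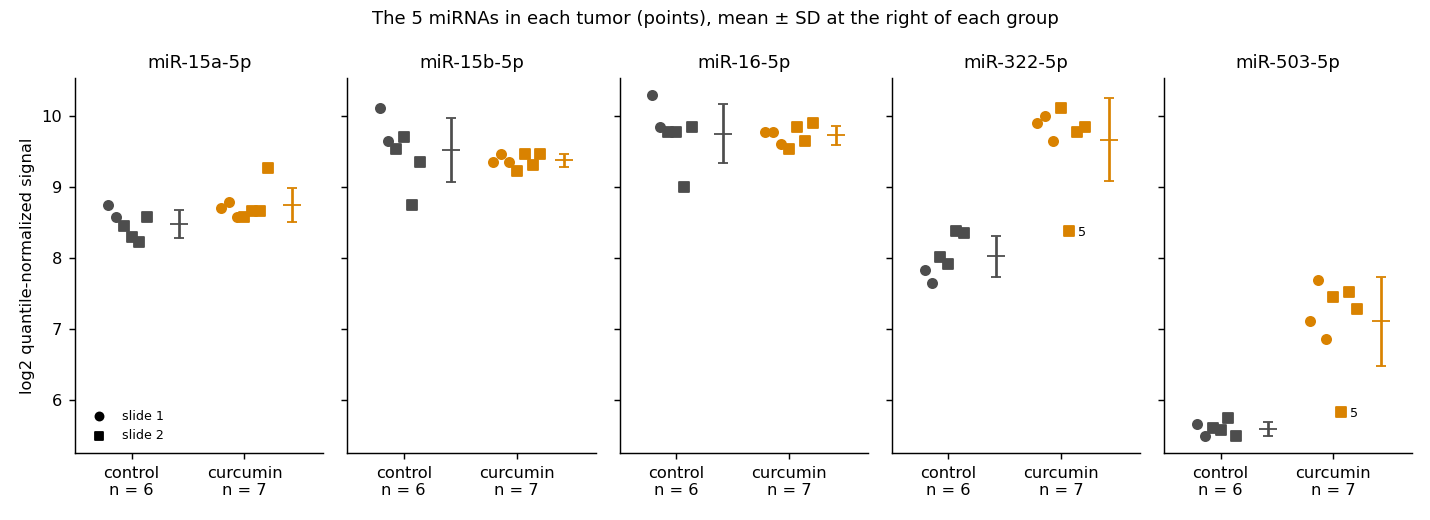
Log2 quantile-normalized signal of the 5 miRNAs in each tumor (points), by diet, with the mean ± SD at the right of each group. Circles are arrays of slide 1 and squares arrays of slide 2. The curcumin tumors lie above the controls for miR-503-5p and, except for tumor 5 (marked), for miR-322-5p, while the groups overlap in the other panels.

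Without curcumin tumor 5 the log2 fold changes were 1.86 for miR-322-5p and 1.73 for miR-503-5p. Both were higher in curcumin tumors on each slide. On slide 1 (3 curcumin and 2 control tumors) the log2 fold change was 2.12 for miR-322-5p (adjusted p = 0.0209, limma) and 1.65 for miR-503-5p (adjusted p = 0.106, limma). On slide 2 (4 tumors per diet) it was 1.37 for miR-322-5p and 1.42 for miR-503-5p, with adjusted p-values of 0.210 and 0.203 in limma. When the fit to all 13 tumors held the slide as a block, the values were 1.65 and 1.51 (adjusted p = 0.00605 and 0.00668, limma).

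Left without normalization between arrays, miR-322-5p was 1.74 and miR-503-5p 1.37 higher on the log2 scale, with adjusted p-values of 0.0800 and 0.171 in limma. With normexp correction of the spot background, the difference of miR-503-5p was 0.91 (adjusted p = 0.0131, limma). Here normexp added an offset of 50 to every spot, which shrinks log2 differences of dim miRNAs more than those of bright ones.

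The 3 members on the autosomes gave another picture. In miR-15a-5p the control tumors ranged from 8.22 to 8.75 (median 8.51) and the curcumin tumors from 8.58 to 9.27 (median 8.66). The groups overlapped, and 33 of the 42 pairs of a curcumin and a control tumor had the higher value in the curcumin tumor. The log2 fold change of miR-15a-5p was 0.27 (SE 0.12, 95% interval 0.00 to 0.54), and it did not pass the threshold in limma (adjusted p = 0.179), while the unadjusted exact permutation p was 0.0431. It was 0.03 on slide 1 and 0.41 on slide 2.

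The level of miR-15b-5p was 9.24 to 9.47 with a median of 9.35 in curcumin tumors and 8.75 to 10.12 with a median of 9.60 in controls. The curcumin tumors thus lay within the range of the controls, with control tumor 5 lowest and control tumor 1 highest. The log2 fold change was −0.14 (SE 0.17, 95% interval −0.52 to 0.24), with an adjusted p of 0.875 in limma and an unadjusted p of 0.463 in the exact permutation test. The slides gave −0.50 and 0.03. It was −0.30 without control tumor 5 (adjusted p = 0.115, limma) and −0.024 without control tumor 1.

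For miR-16-5p the values were 9.54 to 9.91 with a median of 9.78 in curcumin tumors and 9.003 to 10.30 with a median of 9.81 in controls. Again control tumors 5 and 1 were the lowest and the highest. The log2 fold change was −0.03 (SE 0.16, 95% interval −0.39 to 0.33), that is 0.982-fold with an interval from 0.766 to 1.26, with an adjusted p of 1.00 in limma and an unadjusted p of 0.871 in the exact permutation test. The slides gave −0.35 and 0.14, and the sign of miR-16-5p changed with the scaling between arrays, from −0.03 to 0.35 when the 75th percentile of all miRNAs was set equal instead.

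In all, 2 of the 5 miRNAs were higher in curcumin tumors at an adjusted p below 0.05 and none was lower. Over all 1079 miRNAs 15.8% passed this threshold, 8.34% as higher and 7.51% as lower. Among the 243 miRNAs detected on all arrays, 20.2% were higher, and by log2 fold change miR-322-5p was number 17 and miR-503-5p number 20 from the top, followed by miR-15a-5p at 68, miR-16-5p at 109 and miR-15b-5p at 127. The median log2 fold change of the 5 was 0.27, against −0.09 for the miRNAs detected on all arrays.

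Each of the 5 miRNAs was measured by 2 different probes, each printed as 20 spots. Tested singly among all 2754 mouse probes, of which 5.95% were higher in curcumin tumors, both probes of miR-322-5p gave like values, 1.61 (adjusted p = 0.00428, limma) and 1.58 (adjusted p = 0.00410, limma). The probes of miR-503-5p gave 1.69 (adjusted p = 0.00480, limma) and 1.43 (adjusted p = 0.00538, limma). The 6 probes of the other members lay between −0.18 and 0.24, and none of them passed the threshold. The probes of miR-16-5p differed in sign, at 0.06 and −0.06.

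Whether the members changed unequally was tested on the difference of their log2 values within each tumor. A common factor for all signals of an array does not change this difference, whereas quantile normalization can. From miR-322-5p the value of miR-16-5p was subtracted, and the result was −2.46 to −0.62 in controls and −1.46 to 0.58 in curcumin tumors. Only curcumin tumor 5 fell into the range of the controls. The mean difference between the diets was 1.68 (exact permutation p = 0.00233, adjusted p = 0.00583 over 10 pairs). The difference of miR-503-5p and miR-16-5p ran from −4.64 to −3.27 in controls and from −4.02 to −2.09 in curcumin tumors, and the mean difference between the diets was 1.54 (exact permutation p = 0.00350, adjusted p = 0.00583).

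All 6 pairs of an X-linked with an autosomal member changed unequally, by 1.25 to 1.79 on the log2 scale, each with an adjusted p of 0.00583 in the exact permutation test. With normexp correction all 6 pairs were smaller. Those with miR-322-5p were 1.16 to 1.53, and the lowest with miR-503-5p was 0.61 against miR-15a-5p (adjusted p = 0.0306, exact permutation test). Between miR-503-5p and miR-322-5p the difference between the diets was −0.13 (exact permutation p = 0.341), but it was −0.37 in values without quantile normalization (adjusted p = 0.0109, exact permutation test) and −0.55 with normexp correction (adjusted p = 0.00583, exact permutation test). The normexp offset acts unequally on dim and bright miRNAs, and its part in the smaller pairs and in the −0.55 was not tested.

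Differences among the autosomal members were smaller. Relative to miR-15a-5p, miR-15b-5p was lower in curcumin tumors by −0.41 (exact permutation p = 0.0216, adjusted p = 0.0308) and miR-16-5p by −0.30 (exact permutation p = 0.0355, adjusted p = 0.0444). These 2 calls were lost when certain tumors were left out, that of miR-15b-5p in 7 of 13 cases (curcumin 4, 6 and 7, controls 1 to 4) and that of miR-16-5p in 10 of 13 (all but curcumin 1 and 5 and control 5), with values of −0.52 to −0.34 and −0.40 to −0.24. Between miR-16-5p and miR-15b-5p the difference was 0.12 (exact permutation p = 0.0769, adjusted p = 0.0855), and without control tumor 6, or without quantile normalization, it passed the threshold at 0.17 and 0.20 (adjusted p = 0.00758 and 0.0109, exact permutation test).

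**Figure D2:**
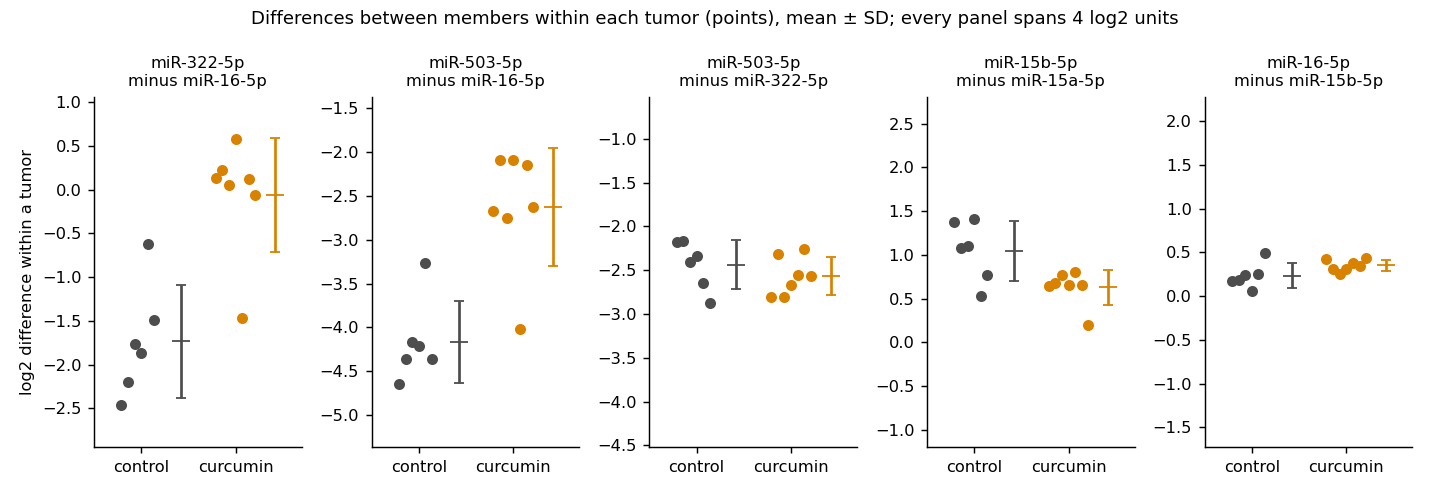
Log2 difference between members within each tumor (points), by diet, with the mean ± SD at the right of each group. Every panel spans 4 log2 units. The curcumin tumors other than tumor 5 lie above the controls where miR-16-5p is subtracted from miR-322-5p or miR-503-5p, and the diets overlap in the other panels.

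Members that are made from neighboring hairpins varied together within a diet group to different degrees. In curcumin tumors (n = 7) miR-322-5p and miR-503-5p had r = 0.94 (exact permutation p = 0.0129, adjusted p = 0.0321 over 6 relations) and rho = 0.68 (exact permutation p = 0.110, adjusted p = 0.164). Without curcumin tumors 4 and 5, the farthest from the median, r was 0.68, so that the relation rests in part on these tumors. In controls (n = 6) r was 0.33 and rho 0.38 (exact permutation p = 0.514 and 0.467), and r was 0.67 without controls 5 and 6.

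The pair miR-15b-5p and miR-16-5p had r = 0.88 and rho = 0.86 in curcumin tumors (exact permutation p = 0.0190 and 0.0238, adjusted p = 0.0321 and 0.0540, n = 7), and r = 0.90 without curcumin tumors 2 and 5. In controls r was 0.95 and rho 0.62 (exact permutation p = 0.0278 and 0.200, adjusted p = 0.0333 and 0.240, n = 6), and this relation rests on controls 1 and 5, without which r was −0.45. The pair miR-15a-5p and miR-16-5p had r = 0.75 and rho = 0.83 in curcumin tumors (exact permutation p = 0.0214 and 0.0270, adjusted p = 0.0321 and 0.0540, n = 7), and r = 0.81 without curcumin tumors 2 and 7. In controls it had r = 0.86 and rho = 0.99 (exact permutation p = 0.0111 for both, adjusted p = 0.0321 and 0.0540, n = 6), and r = 0.89 without controls 1 and 5. Within the slides, groups of 2 to 4 tumors were too small for these relations.

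**Figure D3:**
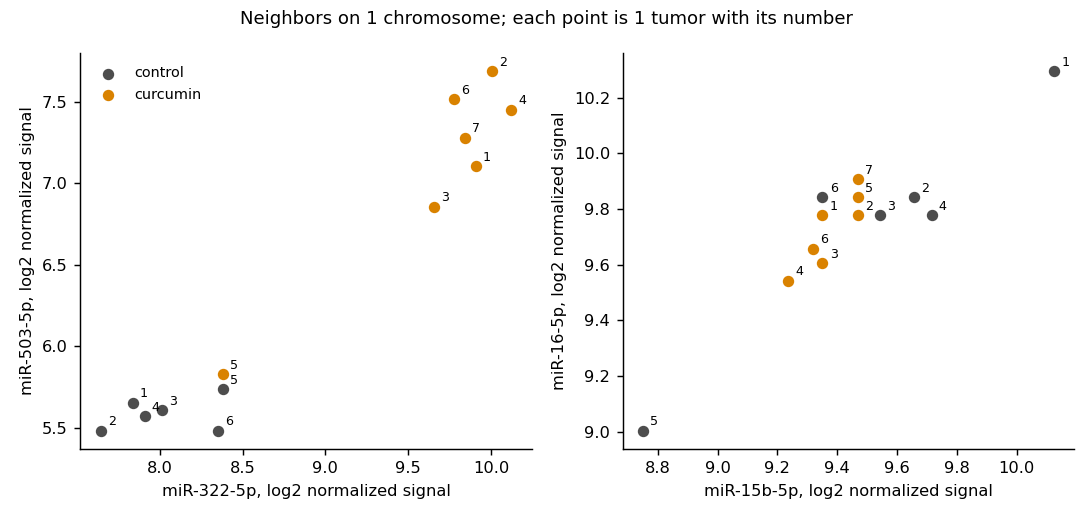
Log2 normalized signal of miR-503-5p against miR-322-5p (left) and of miR-16-5p against miR-15b-5p (right), with 1 numbered point per tumor colored by diet. On the left curcumin tumor 5, at 8.38 and 5.83, lies at the upper edge of the controls, and on the right controls 1 and 5 mark both ends of the range.

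The other arm of each hairpin was also on the array. The hairpin of Mir322 (chrX:53054255-53054349, minus strand) is printed because both of its arms, in capitals, were measured.
Mir322: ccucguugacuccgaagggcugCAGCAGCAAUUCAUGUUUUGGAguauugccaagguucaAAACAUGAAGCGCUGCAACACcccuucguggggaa

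The 3′ arm, miR-322-3p, was detected in 6 of 7 curcumin tumors, again all but number 5, and in 1 of 6 controls. Its signal was above the floor in the same 6 curcumin tumors, at −0.07 to 2.58. The floor, −7.03, is the smallest positive normalized value and was given to normalized values at or below 0. All 6 controls lay at it. Control tumor 5, in which miR-322-3p was detected, had a positive signal of 0.57 before normalization. The limma fit gave an adjusted p of 0.00533, but the size of the difference depends on where the floor lies, and with a floor of 1 on the linear scale the adjusted p was 0.108. Without normalization it was 0.0645. The 3′ arm of miR-503 was detected in no tumor.

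The other arms of the autosomal hairpins were near the background. miR-16-2-3p, detected in 1 of 7 curcumin and 3 of 6 control tumors, fell by 1.23 on the log2 scale (SE 0.35, adjusted p = 0.0381, limma). This call was lost in 10 of 13 fits with a tumor left out (all but curcumin 4 and controls 3 and 6), in which the difference was −1.47 to −1.09 and the adjusted p at most 0.0820. It was also lost in 8 of 12 alternatives, among them the slide as a block (adjusted p = 0.0508, limma) and normexp correction, which gave −0.10 (adjusted p = 0.0777, limma). For miR-15a-3p the log2 difference was −2.17 (adjusted p = 0.0509, limma) and for miR-16-1-3p −3.08 (adjusted p = 0.205, limma). Each was detected more often in controls, in 4 and 5 of 6 tumors against 1 and 2 of 7. Their size depends on the processing. With a floor of 1 they were −1.93 and −2.06 (adjusted p = 0.0296 and 0.0459, limma). In the deposited values they were −0.84 and −0.91 (adjusted p = 0.0640 and 0.105, limma). Normexp correction gave −0.14 and −0.16 (adjusted p = 0.0368 and 0.0525, limma). At the floor in curcumin tumor 5, miR-16-1-3p was −1.85 without that tumor (adjusted p = 0.0717, limma). The difference of miR-15b-3p was 0.07 (adjusted p = 1.00, limma) with a sign that changed between scalings.

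Of the miRNAs with the same seed that are encoded on chromosome 11, miR-195-5p passed the test and miR-497-5p did not. The level of miR-195-5p ranged from 4.80 to 6.08 in controls (median 5.22) and from 5.46 to 7.91 in curcumin tumors (median 6.36). The groups overlapped, with curcumin tumor 7 far above the others. The log2 fold change of miR-195-5p was 1.16 (SE 0.36, 95% interval 0.38 to 1.93), with an adjusted p of 0.0483 in limma, and the slides gave 1.09 and 1.22. Any of 10 tumors could be left out to lose this call (all but curcumin 5 and 7 and control 6), with values of 0.91 to 1.32 and adjusted p-values up to 0.102. The call was also lost in 8 of 13 alternatives, among them the slide as a block (adjusted p = 0.0611, limma), both percentile scalings (adjusted p = 0.121 and 0.0729, limma), no normalization (adjusted p = 0.345, limma) and normexp correction, which gave 0.54 (adjusted p = 0.140, limma). For miR-497-5p, whose hairpin lies 241 bases from that of miR-195, the controls ranged from 4.82 to 6.29 and the curcumin tumors from 5.61 to 7.84. Its log2 fold change was 0.96 (SE 0.35), with an adjusted p of 0.0899 in limma.

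Next to miR-322 and miR-503 the X chromosome holds the hairpins of miR-351, miR-542, miR-450a and miR-450b, of which 9 arms were on the array. Of these 9 arms, 5 were higher in curcumin tumors, 1 was lower and 3 did not pass the test, where 8.34% of all 1079 miRNAs were higher and 7.51% lower. Only 3 of the 9 were detected on all arrays. The median log2 fold change was 1.07. Among the 243 miRNAs detected on all arrays the median was −0.09, and 20.2% were higher. Over all 1079 the median was 0.00, but 594 of these were detected on no array, so that this value says little. miR-450a-5p ranged from 4.00 to 4.56 in controls (median 4.27) and from 4.37 to 6.31 in curcumin tumors (median 5.93). Its log2 fold change was 1.41 (SE 0.28, adjusted p = 0.00745, limma), and this call held with each tumor left out (largest adjusted p 0.0192). It was 1.57 on slide 1 (adjusted p = 0.108, limma) and 1.27 on slide 2 (adjusted p = 0.251, limma). The call was lost without normalization (adjusted p = 0.252, limma), and with normexp correction the log2 fold change was 0.55 (adjusted p = 0.0139, limma).

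The other arms that rose were nearer to the threshold. In limma miR-450b-3p was 1.31 higher (adjusted p = 0.0318), miR-542-5p 1.20 (adjusted p = 0.0339), miR-542-3p 1.20 (adjusted p = 0.0318) and miR-351-5p 1.07 (adjusted p = 0.0494). Among these 4 the calls were lost in 9 to 12 of 13 fits with a tumor left out, with adjusted p-values up to 0.0963. The number of higher arms was 1 without any of curcumin tumors 1 to 4 and 6 or control tumors 2 to 5, 2 without control 6, 4 without curcumin 7 or control 1, and 6 without curcumin 5. After scaling to a percentile miR-450a-5p was the only arm called higher. With normexp correction, whose offset shrinks the differences of dim arms, the log2 fold changes of these 4 arms were 0.18 to 0.35. The lowest of them, that of miR-351-5p, still passed (adjusted p = 0.00350, limma). miR-351-3p fell by 0.86 (SE 0.19, adjusted p = 0.0140, limma), with 3.37 to 4.37 in curcumin tumors and 4.39 to 5.05 in controls. Its groups did not overlap, as was found in 11.9% of the 243 miRNAs detected on all arrays. The slides gave −0.36 and −1.20 (adjusted p = 0.656 and 0.0940, limma). With normexp correction miR-351-3p was at −0.26 (adjusted p = 0.0418, limma), and it lay opposite to the 5′ arm of the same hairpin. The log2 difference of miR-450b-5p was 0.92 (adjusted p = 0.0609, limma) and that of miR-450a-2-3p −0.30 (adjusted p = 1.00, limma), while miR-450a-1-3p was detected in no tumor.

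**Figure D4:**
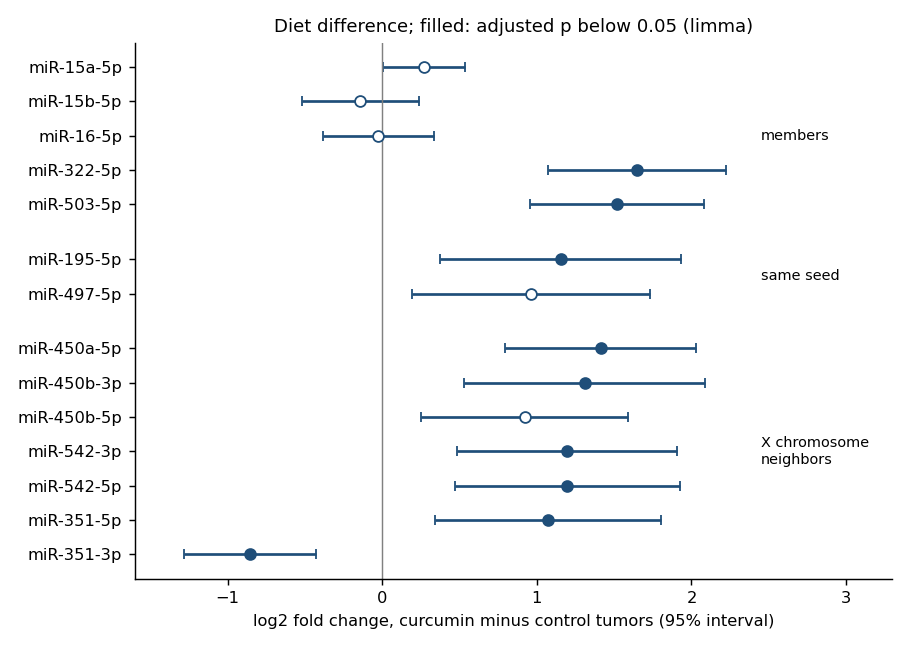
Log2 fold change of curcumin against control tumors with its 95% interval for the 5 miRNAs, the miRNAs of the same seed and the X chromosome neighbors. Filled points have an adjusted p below 0.05 in limma. miR-322-5p at 1.65 and miR-503-5p at 1.52 stand beside miR-450a-5p at 1.41, and the intervals of miR-15b-5p and miR-16-5p include 0.

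Over the 13 arrays, the miRNAs most like each of the 5 were listed by Pearson's r among 238 others detected on all arrays. For miR-322-5p these were miR-338-3p (r = 0.98), miR-29b-3p (0.97) and miR-34b-5p (0.97). For miR-503-5p they were its neighbor miR-450a-5p (0.97), miR-100-5p (0.96) and miR-338-3p (0.96). miR-15a-5p was most like miR-497-5p (0.86), miR-195-5p (0.85) and miR-342-3p (0.84), the first 2 of which share its seed. Curcumin tumor 7 had the highest value of miR-15a-5p and of each of these miRNAs, and r without it was not computed. let-7d-5p came first for both miR-15b-5p (0.93) and miR-16-5p (0.95), followed by miR-361-5p (0.88) and miR-103-3p (0.85) for the former and miR-99a-5p (0.86) and let-7f-5p (0.84) for the latter. The arrays share their normalization and the diet difference, and these values are a description only.

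Several miRNAs known from other cell types moved with the diet in the same tumors. Over all 1079 miRNAs 8.34% were higher and 7.51% lower, and of the 243 detected on all arrays 20.2% were higher. Of 5 hematopoietic miRNAs (miR-142-3p, miR-142-5p, miR-223-3p, miR-150-5p and miR-342-3p) 5 rose, and their summed level was 9.23 to 10.80 in curcumin tumors and 8.29 to 9.04 in controls on the log2 scale. Nearest to the threshold was miR-342-3p, with a log2 fold change of 0.42 and overlapping groups (adjusted p = 0.0471, limma). miR-150-5p lay at the floor in 3 controls. Of 5 fibroblast miRNAs (miR-199a-5p, miR-199a-3p, miR-214-3p, miR-143-3p and miR-145-5p) 2 rose, those of miR-199a, with a summed level of 8.96 to 10.09 against 7.34 to 8.62. miR-214-3p narrowly missed the threshold (adjusted p = 0.0501, limma), at 3.47 to 5.74 in curcumin tumors and −7.03 to 3.08 in controls. It was detected in 7 of 7 and 3 of 6 tumors and lay at the floor in 2 controls. The log2 fold changes of miR-143-3p and miR-145-5p were 0.20 and −0.05.

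Of the 4 skeletal muscle miRNAs (miR-1a-3p, miR-133a-3p, miR-133b-3p and miR-206-3p) only miR-206-3p rose, and the summed level was 4.86 to 9.91 in curcumin tumors and 4.55 to 9.25 in controls, with miR-1a-3p at the floor in 1 and 2 tumors. Neither endothelial miRNA passed the test, at 7.99 to 9.68 against 7.10 to 8.14 summed. The log2 fold changes were 0.83 for miR-126-3p and 0.96 for miR-126-5p (adjusted p = 0.0647 and 0.0758, limma). Of the melanocytic miRNAs miR-211-5p fell and miR-204-5p did not pass, at 2.07 to 9.29 against 8.27 to 9.73 summed. The 3 erythroid miRNAs on the array (miR-451, miR-144-3p and miR-144-5p) did not pass, at 5.50 to 8.12 against 5.32 to 9.48 summed, and miR-144-5p lay at the floor in 6 curcumin and 5 control tumors. The part of these cell types in the differences of miR-322-5p and miR-503-5p was not tested.

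As a share of the signal before normalization, the 5 miRNAs made up 1.01% to 1.84% of the summed mouse miRNA signal with a median of 1.46% in curcumin tumors and 0.924% to 1.43% with a median of 1.18% in controls, an overlapping range with an exact permutation p of 0.0466. The share of miR-322-5p alone was 0.131% to 0.644% with a median of 0.485% in curcumin tumors and 0.116% to 0.186% with a median of 0.127% in controls, with an exact permutation p of 0.00233. These p-values are unadjusted. Curcumin tumor 5 had the 0.131% and was the only curcumin tumor within the range of the controls.

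**Figure D5:**
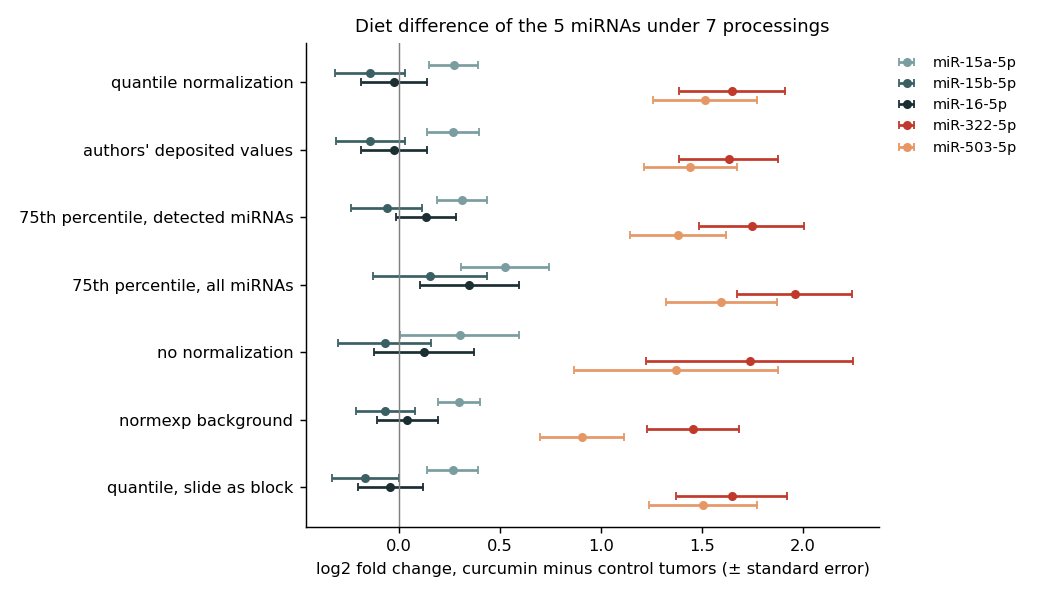
Log2 fold change (curcumin minus control tumors, with its standard error) of the 5 miRNAs under 7 ways of processing the signals. miR-322-5p lay between 1.46 and 1.96 and miR-503-5p between 0.91 and 1.60, while miR-16-5p lay on both sides of 0.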

How the data were processed

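The authors labeled total RNA of 13 tumors in 1 color and obtained background-subtracted intensity values per probe from the scans with the software Feature Extraction (10.10.1.1). A table of log2 values, quantile normalized according to the methods, was deposited by the authors too. Here the probe intensities of a mouse miRNA were added up, and the sums of the 1079 miRNAs were quantile normalized over the arrays. Normalized sums that were not positive (7215 of 14027) received the floor, 0.00765, before log2. Of the 1079, 243 were detected on all arrays.

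Groups were taken from the sample labels. The diet groups were tested by limma (3.58.1, in R 4.3.3, two-sided, no covariates), with Benjamini-Hochberg adjustment over all 1079 miRNAs and a threshold of 0.05. Exact permutation tests used all 1716 splits into 7 and 6, for which the smallest p is 0.000583. No arrays held identical values. The labels do not say whether the tumors came from separate mice, so the p-values measure the spread between these tumors.

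The miRNAs named are the 5, those sharing bases 2 to 7 or 2 to 8, the other arms, the X chromosome neighbors, the 3 most similar miRNAs of each, and lists for other cell types, of which miR-486-5p was not matched on the array. Members and lists were chosen with earlier results of these data known. Sequences and positions are RefSeq's for GRCm38.p6, by miRNA name. The number of arrays limits the precision. Alternatives were the deposited values, other scalings, a floor of 1, normexp (offset 50), a restriction to miRNAs detected in all tumors of 1 diet or more, t-tests, slides, a replicate block and each tumor left out.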

Additional observations from a re-analysis of the deposited data

Results flagged for a closer look

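In 20 groups of tumors tested, those of the 5 miRNAs and of others described above, 4 held a tumor far from the rest of its group, where chance gives about 1 in 20 independent groups. These groups were not independent, since miR-15a-5p varied with miR-497-5p (r = 0.86) and miR-195-5p (r = 0.85) over the arrays. The 4 can therefore not be set against that number. Curcumin tumor 5 was the lowest for miR-322-5p at 8.38, with the next tumor at 9.66. Curcumin tumor 7 was the highest in the other 3. It had 9.27 for miR-15a-5p (next 8.79), 7.91 for miR-195-5p (next 6.48) and 7.84 for miR-497-5p (next 6.45). These values are on the log2 scale, and no cause was tested.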

How the results depend on the processing

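The rise of miR-322-5p passed in 10 of 13 alternatives and that of miR-503-5p in 9 of 13. Over all 13 they were 1.37 to 2.12 and 0.91 to 1.65. With a tumor left out they ranged from 1.57 to 1.86 and from 1.42 to 1.73, and all passed. They missed the threshold without normalization (1.74 and 1.37), on slide 2 alone (1.37 and 1.42) and, for miR-503-5p, on slide 1 alone (1.65), where fewer tumors were tested. Replicate numbers were used as a block of 6 pairs, which gave 1.62 (adjusted p = 0.0538, limma) and 1.49 (adjusted p = 0.0527, limma) and 67 calls, and so ended both calls. The deviations of same-numbered tumors correlated above 0.1 in 4 of 6 pairs (all −0.30 to 0.20), and 0 controls were closest to their own number, so the numbers were not taken as pairs.

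The difference of miR-15b-5p turned to 0.15 (75th percentile of all miRNAs) and 0.033 (slide 2). That of miR-16-5p turned to 0.13 (75th percentile of detected miRNAs), 0.35 (75th percentile of all), 0.12 (no normalization), 0.041 (normexp) and 0.14 (slide 2), and ranged from −0.18 to 0.081 with a tumor left out, with the sign turned without curcumin 4 or control 1. That of miR-15b-3p turned to −0.0045 (deposited values), −0.58, −0.36, −0.59 (the scalings in the same order), −0.13 (floor of 1), −0.30 (normexp) and −0.23 (slide 1), with −0.33 to 0.28 with a tumor left out. That of miR-450a-2-3p turned to 0.036 (normexp) and 0.27 (slide 2).

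The 171 calls became 105 (75th percentile of all), 49 (no normalization), 34 and 3 (slides 1 and 2), and 103 to 184 with a tumor left out, with the number moved by over 1.5 times without curcumin 1, 2 or 6 or control 2 or 4. The 5 higher X chromosome neighbors became 1 after either scaling to a percentile, 0 without normalization and on each slide, 1 under the block, and 1 to 6 with a tumor left out. Between miR-16-5p and miR-15b-5p the difference became 0.20, and between miR-503-5p and miR-322-5p −0.37, under each of the scalings other than quantile normalization, and the latter −0.55 with normexp. With a tumor left out the first was 0.083 to 0.17, miR-15b-5p minus miR-15a-5p −0.52 to −0.34, and miR-16-5p minus miR-15a-5p −0.40 to −0.24. The causes were not tested. Normexp on the mean spot brightness was not run, and the median was used, a choice made after seeing the data. Signals near background limit the dim arms and X chromosome neighbors.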
